A study of Mus musculus with 10 samples.

Results

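The genes described here are the cadherins and non-clustered protocadherins of the mouse, taken as every symbol made of Cdh or Pcdh and a number. The rule found 34 of the 31053 genes in the count tables, and left out the clustered Pcdha, Pcdhb and Pcdhg genes and symbols with a letter after the number. The members are 5 type I classical cadherins, 13 type II cadherins, 5 other cadherins, 3 delta-1 protocadherins, 5 delta-2 protocadherins and 3 other non-clustered protocadherins. Their UMIs were counted in single cells from the cortex of 10 embryos at E16.5, with 1 library of 3′ transcript ends (10X Genomics) for each embryo. There were 3 WT embryos, 4 heterozygous embryos with the genotype Gatad2b stop/+ (Het) and 3 homozygous embryos with Gatad2b stop/stop (KO). All were on the C57BL/6N-A tm1Brd background, and Het embryos were littermates of WT embryos. The stop allele, tm1a(EUCOMM)Hmgu, is a germline gene trap in an intron after the first coding exon, so every cell type carries it, later exons are retained in the genome and UMIs of the 3′ end need not vanish. Animals with Gatad2b stop/stop die around birth.

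Cadherins are calcium-dependent adhesion proteins of the cell surface. Classical cadherins of type I and type II bind partners on the neighbouring cell, mostly of the same or a related type, and hold the actin cytoskeleton through catenins at their inner end. Combinations of type II cadherins and delta protocadherins differ between the layers and areas of the developing cortex, and are known for sorting neurons, guiding axons and choosing synaptic partners. Delta-2 protocadherins bind the WAVE actin regulator through their cytoplasmic end. Gatad2b is a subunit of NuRD, a complex that couples nucleosome remodelling with histone deacetylation.

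The targeted gene was checked first, and followed the labels in every library. Gatad2b was at 139, 131 and 133 CPM (UMIs scaled to a common library size, here after TMM scaling) in the WT embryos, 94.2, 89.8, 90.0 and 95.7 in the Het embryos and 50.9, 52.8 and 57.3 in the KO embryos. The files held 80071 barcodes, and 65779 cells passed the filters (at least 1000 UMIs, at most 10% mitochondrial UMIs), with 5147 to 8103 cells, 82872641 to 123737385 UMIs and a median of 10795 to 17077.5 UMIs per cell in an embryo. A search for cells copied whole between libraries found none. In it, 496 barcodes recurred between libraries, 4 to 19 for each pair of libraries. None of the 498 pairs of cells with a shared barcode had the same set of detected genes, a search that cannot find partial copies. The names of the libraries have 2 prefixes, GA429 for the WT embryos and Het replicate 4 and GA422 for the KO embryos and Het replicates 1 to 3. The labels do not say what the prefixes mean, and genotype and prefix cannot be told apart in KO vs WT. KO was therefore also compared with Het replicates 1 to 3 within GA422. Genotype and prefix are largely mixed in Het vs WT as well, since only Het replicate 4 has the prefix of the WT embryos. Every result of Het vs WT below, over all cells or in a class, carries this limit. Classes of cells were named from marker genes, as layer II-IV-like for example, and clusters that met no rule kept a number. Genes were tested with edgeR's quasi-likelihood test on UMIs summed per embryo, and called at a Benjamini-Hochberg adjusted p under 0.05 over all genes tested and an absolute log2 fold change above 0.25.

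A group of 6 members had too few UMIs for any test over all cells. These were Cdh1 (E-cadherin) with 11 UMIs in all 10 libraries, Cdh16 with 6, Cdh17 with 27, Cdh19 with 24, Cdh26 with 41 and Cdh3 (P-cadherin) with 79. Of the Cdh3 UMIs, 69 came from WT replicate 1, the library in which the summed choroid plexus markers stood at 1819.9 CPM against 112 and 3.25 in the other WT embryos and at most 4.17 in Het and KO. The part of those cells in the Cdh3 value was not tested. The other 28 members entered the test, among 17647 genes.

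In WT, the levels of the members measured per class differed widely. This is a description without a test, in CPM of the UMIs summed per embryo and class, where a UMI of a 3′ end counts 1 molecule whatever the length of the gene. The highest class of a member depended on the clustering, and was kept in 10 of 17 members at resolution 0.8 and in 10 without integration. Markers of other cell types also had UMIs in these classes. In the WT layer II-IV-like cells the erythroid markers summed to 189 to 1415 CPM and the interneuron markers to 130.2 to 179.7, and a low level of a member is not read as expression. Cdh2 (N-cadherin), the classical cadherin of neural tissue, was the broadest. It stood between 229.5 and 460.1 CPM in every neural class, at 458 ± 38.8 (SD, n = 3) in layer V-VI-like cells and 344 ± 9.85 in layer II-IV-like cells, and at 68.6 in microglia-like cells. Cdh4 (R-cadherin) was highest in layer I-like cells, at 343 ± 25.4, and stood at 153 ± 12.2 in cluster 1, whose leading genes were Unc5d, Pdzrn3 and Sema3c, and at 28.8 ± 4.56 in layer V-VI-like cells.

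The vascular members stood apart from the neural ones. Cdh5 (VE-cadherin, the junction protein of endothelial cells) was at 273 ± 139 CPM in endothelial-like cells and 200.2 ± 24.9 in pericyte and fibroblast-like cells, and under 1 in every neural class. Pcdh12, another endothelial protocadherin, had 53.5 ± 24.6 and 57.6 ± 7.01 CPM there. Pcdh18 was at 221 ± 24.9 in pericyte and fibroblast-like cells and at most 29.7 in a neural class, and Pcdh1 was highest in pericyte and fibroblast-like and endothelial-like cells, at 85.1 and 67.7. The endothelial markers were present in the pericyte and fibroblast-like cluster as well, with a mean marker score of 3.02 against 4.69 for its own list.

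Among the excitatory classes, Cdh12 was highest in the upper layers and is among the 10 leading genes of that cluster, with 89.6 ± 4.57 CPM in layer II-IV-like cells and 20.6 ± 0.432 in layer V-VI-like cells. Pcdh7 was high in both, at 131 ± 7.26 and 106 ± 11.9. Cdh13 (T-cadherin, which is held in the membrane by a lipid anchor and has no cytoplasmic end) stood at 138 ± 24.4 in layer V-VI-like cells, 133 ± 10.7 in cluster 5 (led by Fam19a1, Tfap2d and Thsd7a) and 71.0 ± 5.54 in layer II-IV-like cells, and at 3.99 ± 1.24 in subventricular zone-like progenitors. Cdh8 and Cdh10 had their highest level among the named classes in those subventricular zone-like cells, at 101 ± 9.33 and 102 ± 5.78. Pcdh19 was nearly as high in interneuron-like cells (98.5 ± 6.74) as in cluster 5 (100.4 ± 12.4), levels that differed by less than the spread between embryos, and stood at 13.6 ± 1.97 in layer II-IV-like cells. Among the named classes Pcdh10 was highest in radial glia-like (144 ± 24.3) and striatal inhibitory-like cells (121 ± 5.80), again within the spread of each other. Pcdh9 reached 161 ± 21.8 in cluster 5 and 109.9 ± 9.67 in layer V-VI-like cells, and Pcdh8 103 ± 5.34 in cluster 1. Pcdh17 was alike in layer V-VI-like (98.8 ± 9.15) and interneuron-like cells (95.0 ± 41.2), with a wide spread in the latter. Cdh11 stood at 112 ± 13.1 in pericyte and fibroblast-like cells and 85.0 ± 5.57 in layer V-VI-like cells.

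**Figure D1:**
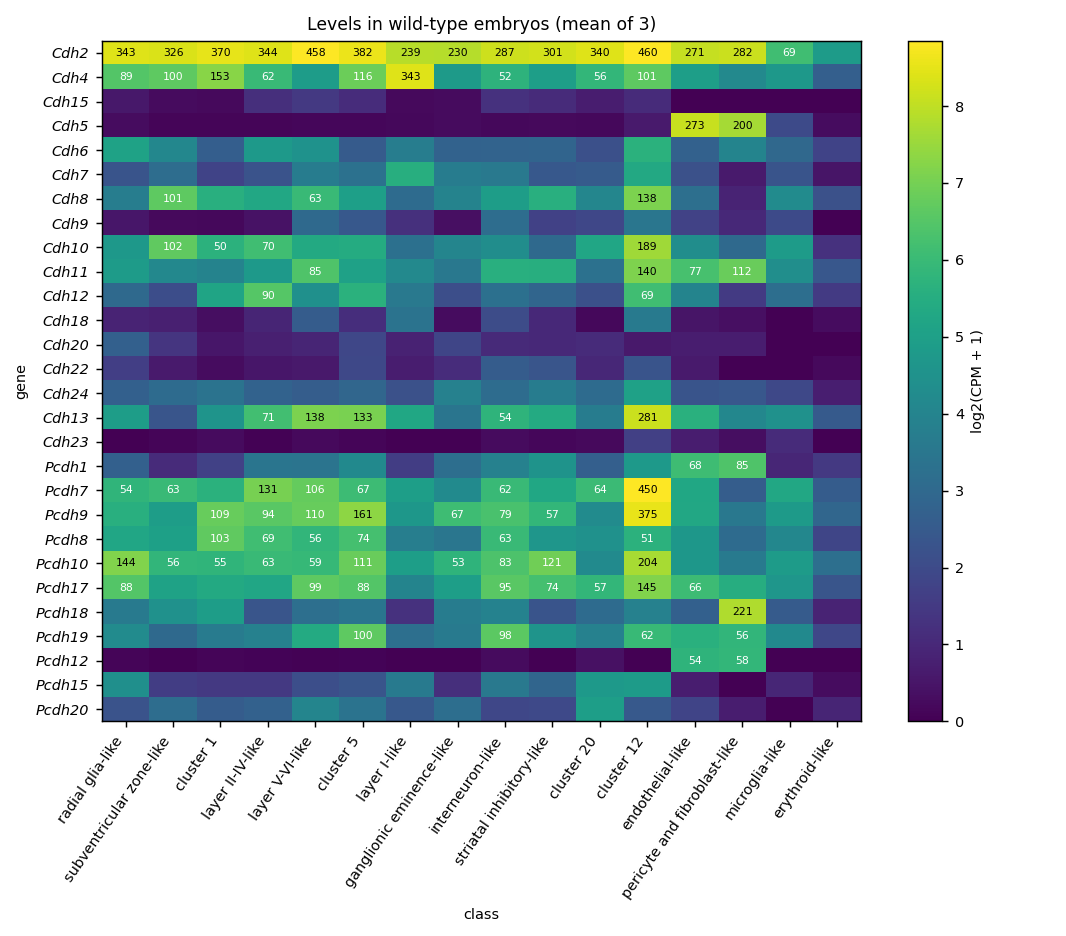
Mean level of the 28 tested members in WT embryos (n = 3) by class of cells, as log2(CPM + 1) in colour, with the CPM printed where it is at least 50. Cdh2 is high across the neural classes, Cdh5 and Pcdh12 are confined to the endothelial-like and pericyte and fibroblast-like columns at this threshold, and Cdh4 peaks in layer I-like cells at 343 CPM.

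Cluster 12 had the highest level of several members, Pcdh7 at 450.1 CPM among them. Its cells had a median of 1526 UMIs, it met the rule of no class, and it made up 4.27 ± 0.286% of WT cells and 1.24 ± 0.666% of KO cells. Without clusters 11, 12 and 16, which hold few UMIs per cell and lie mostly in GA429 libraries, the numbers of members called over all cells were the same as with them.

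With 1 stop allele, no member passed the test over all cells, where 2.98% of all genes did. At an unadjusted p under 0.05 there were 7 members, against 26.9% of all genes, and DESeq2 called 1, against 5.68%. Cdh10, a type II cadherin, came closest, at 44.2, 44.3 and 38.9 CPM (TMM-scaled) in the WT embryos and 36.1, 33.8, 35.8 and 37.5 in the Het embryos. All 4 Het values lay under the lowest WT value. Its log2 fold change of -0.25 (SE 0.06, adjusted p = 0.0442) passed the threshold on p and not the one on size. The median log2 fold change of the tested members was -0.11, against 0.000475 over all genes tested.

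With 2 stop alleles, 11 of the 28 tested members were called against WT, 9 lower and 2 higher. The share over all genes was 24.5%, of which 12% of all genes were higher and 12.5% lower. The 9 lower members were 4 type II cadherins (Cdh8, Cdh9, Cdh10 and Cdh12), 2 delta-2 protocadherins (Pcdh18 and Pcdh19), the delta-1 protocadherin Pcdh7, and Pcdh15 and Pcdh20. The 2 higher ones were Cdh13 and the type II cadherin Cdh24. None of the 3 tested type I cadherins (Cdh2, Cdh4 and Cdh15) was called. The median log2 fold change of the tested members was -0.15, against -0.00548 over all genes. Markers of cell types moved in these sums too. Higher were 9 of 9 subventricular zone markers, and lower were 5 of 6 oligodendrocyte precursor, 4 of 14 interneuron and 3 of 9 layer II-IV markers. Of the layer V-VI markers 4 of 10 were higher and 3 lower, with sums of 730.6 to 815.2 CPM in WT and 978.2 to 1143 in KO. Of the radial glia markers 3 of 10 were higher and 1 lower, and of the layer I markers 1 of 8 was higher and 1 lower. Lower were also 5 of 5 choroid plexus and 1 of 8 endothelial markers. Of the ganglionic eminence markers 5 of 10 were higher and 1 lower, and of the striatal inhibitory markers 1 of 12 was higher and 4 lower. Their part was not tested. In sums over all cells, fewer cells of a type and less RNA per cell cannot be told apart, so the values below are followed into the classes.

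Pcdh7, a delta-1 protocadherin whose cytoplasmic end binds a protein phosphatase, had the lowest adjusted p of the members. It stood at 86.8, 82.9 and 76.6 CPM (TMM-scaled) in the WT embryos, 62.0, 60.9, 66.6 and 78.6 in the Het embryos and 42.6, 37.8 and 45.0 in the KO embryos. KO and WT did not overlap, and Het replicate 4 (GA429) was the one Het embryo within the WT range. The log2 fold change was -0.97 (SE 0.09, adjusted p = 4.36e-05) in KO vs WT and -0.29 (SE 0.09, adjusted p = 0.0703) in Het vs WT.

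The type II cadherins Cdh10, Cdh12 and Cdh8, whose extracellular ends mediate adhesion between neurons, were ordered WT, Het, KO. Cdh10 had 26.2, 27.8 and 30.4 CPM in the KO embryos, each under every Het value, and a log2 fold change of -0.59 (SE 0.07, adjusted p = 8.64e-05). For Cdh12, the values were 35.4, 33.2 and 32.5 in WT, 29.6, 30.3, 30.9 and 27.9 in Het and 20.3, 24.1 and 23.1 in KO, 3 groups without overlap (log2 fold change -0.58, SE 0.06, adjusted p = 8.36e-05). Cdh8 fell from 45.1, 40.8 and 40.3 in WT and 38.6, 32.8, 32.8 and 39.1 in Het to 29.3, 27.4 and 32.3 in KO (log2 fold change -0.50, SE 0.08, adjusted p = 0.00108). None of these groups overlapped either.

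Cdh9, a type II cadherin of synapses, is a low gene here, with 2572 UMIs in all. Its CPM were 2.82, 3.69 and 3.23 in WT, 1.56, 2.11, 2.73 and 3.32 in Het and 1.66, 0.935 and 2.24 in KO. The KO embryos spread widely among themselves and still lay under every WT embryo, with a log2 fold change of -1.001 (SE 0.30, adjusted p = 0.0237). Cdh24 was the one type II cadherin called higher, from 6.61, 6.87 and 7.21 in WT over 7.69, 7.49, 7.88 and 7.18 in Het to 8.17, 9.39 and 8.63 in KO (log2 fold change 0.34, SE 0.07, adjusted p = 0.00437), with no overlap between KO and either other group. Cdh22, at a log2 fold change of 0.47 (adjusted p = 0.202), was not called.

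The delta-2 protocadherins Pcdh18 and Pcdh19 (the latter the gene of a human epilepsy with X-linked inheritance) changed less. Pcdh18 was at 13.1, 12.9 and 11.7 CPM in WT, 13.7, 12.7, 13.5 and 11.1 in Het and 10.1, 9.68 and 10.7 in KO (log2 fold change -0.31, SE 0.08, adjusted p = 0.0121). Pcdh19 was at 31.2, 36.5 and 38.8 in WT, 29.3, 34.6, 36.1 and 33.2 in Het and 30.6, 25.1 and 30.0 in KO (log2 fold change -0.31, SE 0.10, adjusted p = 0.0282). In both, KO and WT did not overlap, but the highest Pcdh19 value in KO lay only just under the lowest in WT. Pcdh10 (-0.21, adjusted p = 0.0164) passed the threshold on p alone, and Pcdh8 (-0.05, adjusted p = 0.319) passed neither. Pcdh17 had 54.5, 75.1 and 66.4 in WT, 46.1, 57.3, 59.9 and 60.1 in Het and 60.1, 49.0 and 59.0 in KO, groups that overlap throughout (log2 fold change -0.22, SE 0.13, adjusted p = 0.191).

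Promoters were read for the members that RefSeq lists for GRCm38.p6, 22 of 34. The bases before the start of 3 members are printed, Pcdh18 and Pcdh19, which fell here and in both layer classes below, and Cdh6, which is followed below in opposite directions in the 2 layer classes. The stretches are chr3:49757326-49757566 (minus strand) for Pcdh18 (chr3:49743296-49757325), chrX:133688994-133689243 (minus) for Pcdh19 (chrX:133582860-133688987) and chr15:13173676-13173925 (minus) for Cdh6, 5′ to 3′, all outside annotated exons. Capitals mark GC boxes (GGGCGG) and CCAAT boxes (CCAAT), on either strand.
Pcdh18: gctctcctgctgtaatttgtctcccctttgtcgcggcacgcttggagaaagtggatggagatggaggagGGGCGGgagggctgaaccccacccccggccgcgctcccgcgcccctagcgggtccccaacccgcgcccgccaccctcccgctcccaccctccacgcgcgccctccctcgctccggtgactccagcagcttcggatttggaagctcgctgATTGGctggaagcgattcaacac
Pcdh19: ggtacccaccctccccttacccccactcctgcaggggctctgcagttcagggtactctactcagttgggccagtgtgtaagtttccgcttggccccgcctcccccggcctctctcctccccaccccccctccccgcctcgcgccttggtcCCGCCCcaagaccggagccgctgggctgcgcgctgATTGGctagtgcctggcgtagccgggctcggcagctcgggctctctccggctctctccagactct
Cdh6: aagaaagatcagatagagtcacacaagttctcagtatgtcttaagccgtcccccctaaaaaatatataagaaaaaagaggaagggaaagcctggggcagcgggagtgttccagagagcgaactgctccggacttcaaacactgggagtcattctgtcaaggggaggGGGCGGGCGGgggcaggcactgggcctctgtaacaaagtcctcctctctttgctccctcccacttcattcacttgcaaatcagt

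Pcdh18 and Pcdh19 each hold 1 GC box and 1 CCAAT box in these stretches, at a GC content of 67.6% and 69.2%. Cdh6 holds 2 GC boxes that overlap each other and no CCAAT box, at 51.2%. Over the 250 bases before the start in each promoter, GGGCGG was found in 9 of 22 members (40.9%) and 32.9% of all 27025 promoters, and CCAAT in 14 (63.6%) and 34.5%. TATAAA was in 2 members (9.09% against 12.97%), CATCTG in 1 (4.55% against 14.5%) and CAGCTG in 2 (9.09% against 12.8%). Matches on both strands were counted, and none of these motifs contains another. These are matches of letters, and no binding was measured.

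A pair of low protocadherins fell. Pcdh20 had 6.51, 9.04 and 8.44 CPM in WT, 5.05, 7.61, 7.30 and 8.08 in Het and 5.09, 5.30 and 5.11 in KO (log2 fold change -0.63, SE 0.16, adjusted p = 0.0114). Pcdh15, known from the tip links of hair cells, had 3.71, 5.55 and 5.54 in WT, 3.38, 4.50, 4.68 and 4.77 in Het and 3.20, 3.33 and 3.79 in KO (log2 fold change -0.52, SE 0.17, adjusted p = 0.0336), and is the called member in which KO and WT overlapped. Cdh13 rose, from 78.7, 77.5 and 64.5 in WT and 74.4, 67.5, 69.5 and 88.8 in Het to 101, 93.6 and 98.3 in KO (log2 fold change 0.41, SE 0.10, adjusted p = 0.00841), with every KO embryo above every WT and Het embryo. Cdh2 was the most abundant member and was not called, with 362, 361 and 325 in WT and 370.2, 352 and 368 in KO (log2 fold change 0.06, SE 0.06, adjusted p = 0.518).

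**Figure D2:**
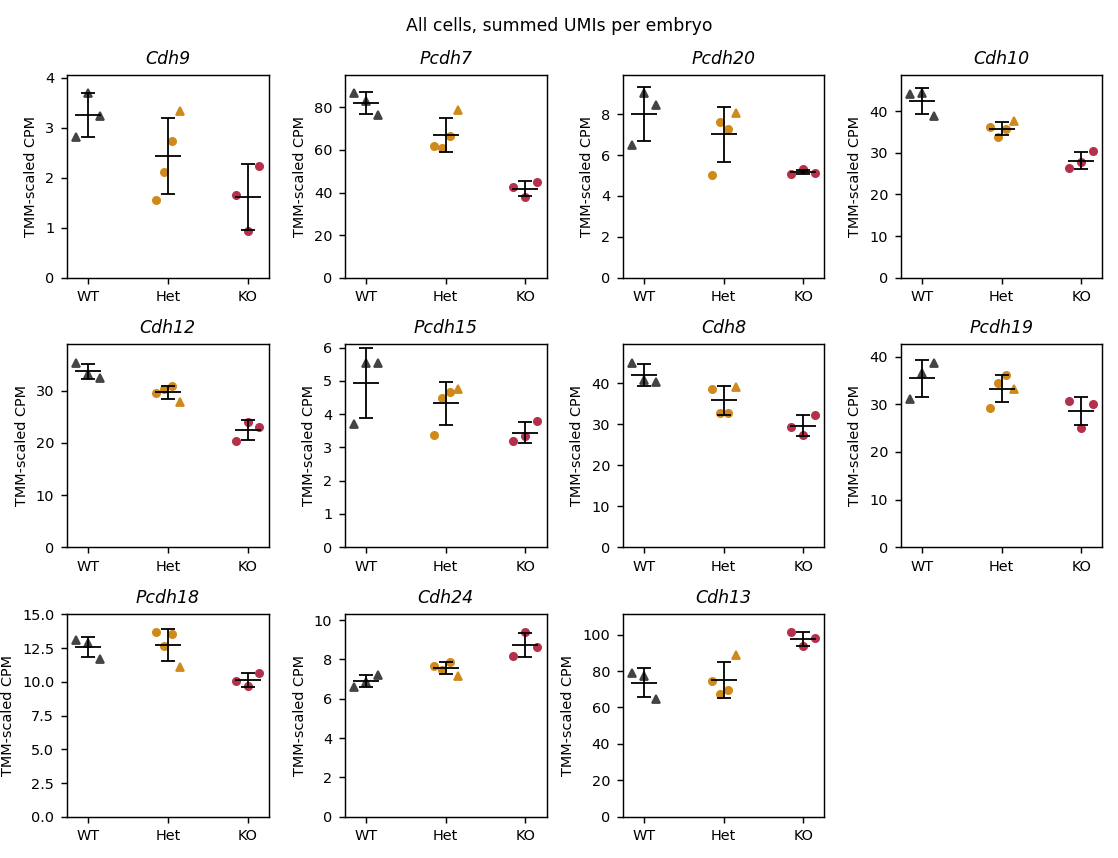
TMM-scaled CPM over all cells for the 11 members called in KO vs WT, with 1 point per embryo, a bar for the mean and an error bar of 1 SD (n = 3 WT, 4 Het, 3 KO). Triangles are libraries of the prefix GA429 and circles those of GA422. Cdh13 and Cdh24 are the 2 members with all KO points above all WT points, and Pcdh15 is the member with overlap.

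Within the GA422 libraries, 5 of 27 tested members were called between KO and Het, against 6.14% of all genes. They were Pcdh7 (-0.59, adjusted p = 0.000776), Cdh12 (-0.43, adjusted p = 0.00314), Pcdh18 (-0.39, adjusted p = 0.0039) and Cdh10 (-0.32, adjusted p = 0.00841), all lower in KO, and Cdh13 (0.47, adjusted p = 0.000561), higher in KO. All 5 had the same direction in KO vs WT. Of the 11 members called in KO vs WT, the mean of Het lay between those of WT and KO in 10. Among the same 11, Het replicate 4 lay outside the range of the other Het embryos on the side of WT in 7, on the side of KO in 3 and inside it in 1. Neither split was made over all genes called in KO vs WT, so both are descriptions of the 11 only. With the prefix as a covariate, 5 members were called in KO vs WT, against 8.31% of all genes. The prefix term of that fit rests on Het replicate 4 alone, 1 library, against Het replicates 1 to 3. There Cdh8 stood at a log2 fold change of -0.33, Pcdh15 at -0.33, Pcdh20 at -0.35 and Cdh9 at -0.36, none of them called. Over a mean of classes with equal weight 5 were called, 4 of them among the 11, against 11.2% of all genes. In that mean Pcdh19 stood at -0.0748, Cdh13 at 0.14, Pcdh18 at 0.0525 and Pcdh15 at 0.17, none of them called. Without KO replicate 2 there were 7, against 19.2%. Over the 21 alternatives, Cdh9 and Pcdh15 kept the threshold on p and their direction in 15, Pcdh19 in 16, Pcdh18, Pcdh20 and Cdh24 in 19, Cdh8 and Cdh13 in 20, and Pcdh7, Cdh10 and Cdh12 in all 21.

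**Figure D3:**
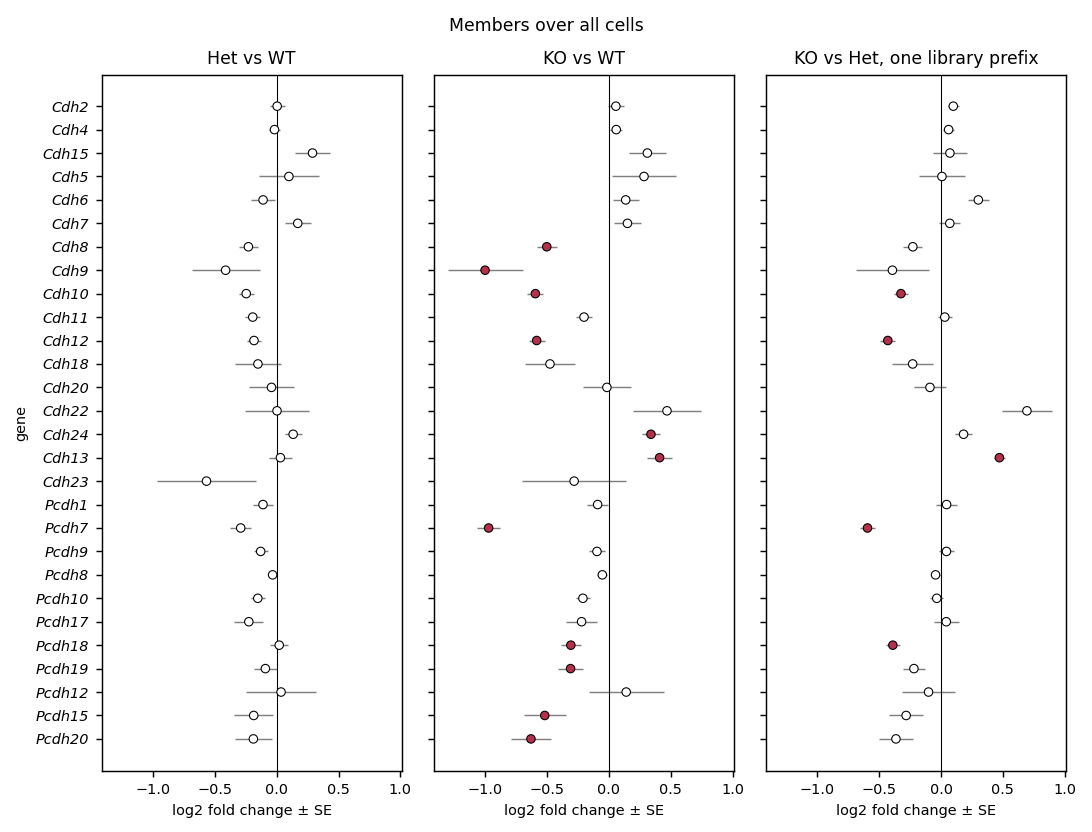
Log2 fold change of the tested members over all cells, with error bars of 1 SE, in Het vs WT, KO vs WT and KO vs Het within GA422. Filled points are called members, of which there are 0, 11 and 5. Pcdh7 reaches -0.97 and Cdh9 -1.001 in KO vs WT.

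In layer II-IV-like cells, the upper-layer projection neurons, more members were called than in the sums. Of the 23 members that passed the filter on low UMIs, 16 were called in KO vs WT, 12 lower and 4 higher, where 27% of all genes were called (13.1% higher, 13.9% lower). The median log2 fold change of the 23 was -0.72, against -0.00154 over all genes tested. All 5 delta-2 protocadherins were called, 4 lower and Pcdh8 higher, as were 4 lower type II cadherins (Cdh6, Cdh7, Cdh8 and Cdh10). Cdh12, lower over all cells and highest in this class among the excitatory ones, was not called here. Its lower calls came in layer V-VI-like, interneuron-like and ganglionic eminence-like cells and in cluster 1. The share of layer II-IV-like cells is given below, and its part in the fall of Cdh12 over all cells was not tested. Values by embryo in classes are CPM without TMM scaling, and fold changes are from the fit with it.

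Cdh6, a type II cadherin whose promoter is printed above, fell to alike values in the KO embryos. It had 25.2, 32.7 and 22.3 CPM in the WT embryos, 17.6, 21.8, 27.2 and 25.2 in the Het embryos and 6.11, 6.03 and 6.06 in the KO embryos, a log2 fold change of -2.11 (SE 0.18, adjusted p = 3.9e-07) in KO vs WT. The KO embryos lay close together and far under the other groups. Over all cells the same gene had shown no call (0.14, adjusted p = 0.33). Pcdh17 stood at 33.8, 47.7 and 27.5 in WT, 23.9, 26.2, 33.0 and 20.2 in Het and 12.6, 11.8 and 13.3 in KO (log2 fold change -1.50, SE 0.20, adjusted p = 3.4e-05), again without overlap between KO and WT.

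Pcdh7 had 139, 129 and 124 CPM in WT, 110.2, 109.8, 129.8 and 122 in Het and 55.9, 48.6 and 67.5 in KO (log2 fold change -1.15, SE 0.09, adjusted p = 2.15e-07). Cdh10 had 72.7, 73.5 and 63.2 in WT, 53.6, 49.3, 60.03 and 65.5 in Het and 31.9, 27.0 and 34.0 in KO (log2 fold change -1.14, SE 0.10, adjusted p = 5.44e-07). In neither gene did a KO embryo overlap the WT or Het embryos. Cdh8 had 39.0, 37.0 and 39.5 in WT, 25.9, 24.7, 24.7 and 31.1 in Het and 20.4, 18.7 and 23.8 in KO (log2 fold change -0.84, SE 0.09, adjusted p = 3.24e-06), and was also called in Het vs WT (log2 fold change -0.50, SE 0.08, adjusted p = 0.00165).

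Of the other delta-2 protocadherins, Pcdh19, Pcdh18 and Pcdh10 were lower as well, by less than Pcdh17. Pcdh19 was at 11.4, 15.2 and 14.3 in WT, 10.1, 13.9, 13.7 and 10.9 in Het and 9.004, 3.60 and 8.42 in KO (log2 fold change -0.91, SE 0.22, adjusted p = 0.00433). Pcdh18 was at 3.89, 4.74 and 3.43 in WT, 4.36, 2.84, 5.29 and 3.94 in Het and 2.47, 2.13 and 1.81 in KO (log2 fold change -0.86, SE 0.23, adjusted p = 0.00878), and Pcdh10 at 58.9, 70.0 and 61.2 in WT, 54.2, 42.9, 53.9 and 55.01 in Het and 35.7, 34.5 and 42.9 in KO (log2 fold change -0.72, SE 0.09, adjusted p = 3.59e-05). In none of the 3 did KO and WT overlap. Pcdh20 and Pcdh15 had the largest fitted changes on few molecules, 754 and 195 UMIs over the 10 embryos. Pcdh20 was at 5.60, 6.45 and 5.28 in WT, 3.34, 3.77, 5.60 and 4.41 in Het and 1.11, 0.736 and 1.18 in KO (log2 fold change -2.47, SE 0.24, adjusted p = 1.51e-06). Pcdh15 was at 1.40, 2.00 and 1.90 in WT, 0.793, 0.696, 1.22 and 0.727 in Het and 0.370, 0.0736 and 0.315 in KO (log2 fold change -2.70, SE 0.39, adjusted p = 8.54e-05), with every Het embryo also under every WT embryo (log2 fold change -1.01, SE 0.26, adjusted p = 0.0325 in Het vs WT).

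A group of 4 members rose in these cells. Cdh13 went from 66.0, 77.0 and 70.0 CPM in WT over 81.4, 77.9, 85.8 and 109 in Het to 141, 126 and 158 in KO (log2 fold change 1.03, SE 0.10, adjusted p = 2.62e-06), and was called in Het vs WT as well (log2 fold change 0.35, SE 0.10, adjusted p = 0.0423), with all 4 Het embryos above every WT embryo. Cdh4 was at 57.9, 64.6 and 64.3 in WT, 63.3, 60.9, 72.1 and 74.9 in Het and 80.6, 78.0 and 83.4 in KO (log2 fold change 0.41, SE 0.07, adjusted p = 0.000408). Cdh24 (0.46, adjusted p = 0.0112) and Pcdh8 (0.26, adjusted p = 0.000969) were also higher. In Het vs WT, 4 members were called in this class, against 5.29% of all genes, the last of them Cdh11 (-0.28, adjusted p = 0.0354). Unlike the others, Cdh11 was not called in KO vs WT in these cells. Within GA422, 14 of 22 members were called between KO and Het, against 10.8% of all genes, with Cdh6 at -1.86, Pcdh7 at -1.03 and Cdh13 at 0.79. Over 22 alternatives, Pcdh8 and Cdh24 missed the threshold on p in 4, Pcdh18 in 3 and Cdh7 and Pcdh9 in 2. At clustering resolution 0.8 Pcdh18 stood at -0.15 and Pcdh8 at 0.0517, and without integration Pcdh18 stood at -0.0543, Pcdh10 at -0.25 and Pcdh17 at -0.38.

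Markers of the layers moved in the same cells. The summed layer II-IV markers lay in WT at 2319 to 2436 CPM, with Het at 2218 to 2361 and KO at 1958 to 2097, and 6 of 9 were called lower in KO. The summed layer V-VI markers lay in WT at 440.3 to 513, with Het at 544 to 688 and KO at 974 to 1088, with 6 of 10 called higher and 3 lower. The summed interneuron markers lay at 130.2 to 179.7 in WT and 34.1 to 50.6 in KO, with 9 of 13 lower. The subventricular zone markers summed to 91.1 to 106 in WT and 149 to 179 in KO, with 6 of 8 higher. Of the radial glia markers 5 of 10 were lower and 1 higher, of the striatal inhibitory markers 5 of 9 were lower, and of the layer I markers 3 of 4 were lower and 1 higher. The share of layer II-IV-like cells was 15.9 ± 1.14% in WT, 13.2 ± 1.43% in Het and 10.6 ± 1.29% in KO (SD). The part of these shifts in the results on cadherins was not tested.

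In layer V-VI-like cells, named after the deep-layer projection neurons, 17 of the 25 members past the filter were called in KO vs WT, 11 lower and 6 higher, against 24.4% of all genes (11.7% higher, 12.7% lower). The median log2 fold change of the 25 was -0.29, against -0.00583 over all genes tested. Pcdh18 changed most, from 8.49, 9.50 and 7.03 CPM in WT and 7.65, 8.74, 8.95 and 6.46 in Het to 2.40, 2.20 and 2.57 in KO (log2 fold change -1.76, SE 0.16, adjusted p = 2.9e-06). Pcdh19, another delta-2 protocadherin, had 39.9, 39.2 and 46.9 in WT, 36.2, 37.7, 41.0 and 29.2 in Het and 19.0, 18.5 and 15.0 in KO (log2 fold change -1.21, SE 0.12, adjusted p = 6.19e-06). In both genes KO lay under every other embryo.

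Pcdh7 also fell, with 116, 109 and 92.9 in WT, 80.9, 75.5, 73.9 and 96.2 in Het and 45.3, 39.7 and 40.9 in KO (log2 fold change -1.29, SE 0.10, adjusted p = 1.06e-06). Cdh8 had 66.4, 62.8 and 59.4 in WT, 52.0, 49.7, 51.5 and 48.5 in Het and 25.6, 26.4 and 30.4 in KO (log2 fold change -1.15, SE 0.06, adjusted p = 3.5e-08). KO lay under every WT and Het embryo in both. Cdh8 was called in Het vs WT too (log2 fold change -0.30, SE 0.06, adjusted p = 0.0157), as was Pcdh17 (log2 fold change -0.37, SE 0.09, adjusted p = 0.0486), the 2 members called there against 1.96% of all genes. Pcdh17 had 89.2, 99.8 and 107 CPM in WT, 64.9, 79.6, 81.9 and 75.6 in Het and 63.1, 51.6 and 64.1 in KO (log2 fold change -0.68, SE 0.10, adjusted p = 0.000141 in KO vs WT). Its Het embryos all lay under the WT embryos and its KO embryos under all Het embryos.

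Pcdh10 fell from 62.7, 63.0 and 51.9 CPM in WT and 50.2, 58.3, 53.0 and 47.8 in Het to 33.0, 32.0 and 32.3 in KO (log2 fold change -0.82, SE 0.09, adjusted p = 8.42e-06). Also lower were Cdh9 (-1.18, adjusted p = 0.000813), Pcdh15 (-1.37, adjusted p = 0.00023), Pcdh20 (-0.65, adjusted p = 0.0102), Cdh12 (-0.64, adjusted p = 0.00641) and Cdh10 (-0.48, adjusted p = 0.00041). Cdh6 rose here, from 23.1, 21.1 and 21.1 in WT and 25.1, 16.6, 19.4 and 23.0 in Het to 40.1, 34.8 and 33.9 in KO (log2 fold change 0.79, SE 0.12, adjusted p = 0.000229), opposite to its fall in layer II-IV-like cells. Cdh13 rose in both classes, and stood here at 166, 129 and 119 in WT, 158, 123, 129 and 173 in Het and 197, 198 and 215 in KO (log2 fold change 0.60, SE 0.12, adjusted p = 0.00231). Cdh4 rose in both as well, at 26.1, 34.0 and 26.2 in WT, 27.9, 28.3, 26.3 and 33.3 in Het and 38.4, 44.5 and 40.4 in KO here (log2 fold change 0.55, SE 0.10, adjusted p = 0.00141). The low members Cdh22 (0.88, adjusted p = 0.0435), Cdh15 (0.55, adjusted p = 0.0452) and Cdh24 (0.37, adjusted p = 0.0263) were higher too, and these calls were often lost. Under the alternatives in processing, Cdh22 missed the threshold on p in 12 of 23, Cdh15 in 15 of 25 and Cdh24 in 9 of 25. Among the lower members, Cdh12 missed it in 5 of 25, and Cdh9 and Pcdh20 in 4 of 25 each.

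Of the 23 members tested in both layer classes, 13 were called in both, against 16% of all genes tested in both. Of the 13, 9 were lower in both (against 8.26%), 3 were higher in both (Cdh4, Cdh13 and Cdh24, against 7.47%) and Cdh6 went in opposite directions (against 0.311%). The 2 comparisons are on the same embryos. Within GA422, 11 of 25 members were called between KO and Het in layer V-VI-like cells, against 10.6% of all genes, with Pcdh18 at -1.79, Pcdh19 at -1.10 and Cdh6 at 0.86. In this class the layer V-VI markers summed to 1780.3 to 1889 CPM in WT and 2268 to 2449 in KO, with 5 of 10 called higher (Fezf2, Wnt7b, Sox5, Tbr1 and Zfpm2) and 3 lower (Nr4a2, Hs3st4 and Crym). The layer II-IV markers summed to 879.8 to 1076 CPM in WT and 712 to 864 in KO, with 6 of 9 lower. The interneuron markers summed to 201 to 236 in WT and 99.7 to 133 in KO, with 6 of 14 lower. The subventricular zone markers summed to 124 to 154 and 179 to 199.8, with 4 of 8 higher, and the radial glia markers to 131 to 184 and 214 to 234, with 5 of 10 higher and 1 lower. Of the striatal inhibitory markers 2 of 11 were higher and 4 lower. Their part in the results was not tested.

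The layer V-VI-like class holds 3 large clusters, which were also fitted 1 by 1. This split was added after the data had been seen, the clusters share embryos, and differences between them were not tested. Cluster 3 is led by Fezf2 and Ldb2, cluster 6 by Hs3st4, Nxph3 and Tle4, and cluster 7 by Crym and Grp. In KO vs WT, 17 of 23 members were called in cluster 3 (against 23.8% of all genes), 12 of 23 in cluster 6 (22.4%) and 11 of 24 in cluster 7 (17.7%).

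Cdh8 was high in cluster 3 of the WT embryos, at 94.8, 104 and 102 CPM, and fell to 29.4, 31.7 and 32.2 in KO (log2 fold change -1.64, SE 0.07, adjusted p = 1.26e-10), with Het between them at 83.3, 81.8, 81.8 and 75.2. In cluster 6 it was low and rose, from 6.42, 8.87 and 5.88 to 12.7, 9.93 and 15.6 (log2 fold change 0.89, SE 0.21, adjusted p = 0.00402). Cdh10 did likewise, falling in cluster 3 from 42.3, 46.5 and 34.8 to 8.15, 13.1 and 15.1 (log2 fold change -1.76, SE 0.19, adjusted p = 3.95e-06) and rising in cluster 6 from 49.6, 46.7 and 45.9 to 76.3, 89.8 and 84.4 (log2 fold change 0.88, SE 0.08, adjusted p = 6.64e-08). In each of these 4 comparisons KO and WT did not overlap.

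Cdh6 rose in cluster 6, from 30.2, 31.1 and 39.3 CPM in WT and 45.0, 30.9, 30.3 and 33.3 in Het to 100.1, 74.4 and 92.4 in KO (log2 fold change 1.51, SE 0.14, adjusted p = 4.84e-08). In cluster 3 it stood at 29.4, 27.8 and 32.3 in WT and 31.7, 34.2 and 30.8 in KO (log2 fold change 0.16, adjusted p = 0.22), and in cluster 7 it was near 1.92 in WT, with a log2 fold change of -0.50 (adjusted p = 0.378). Pcdh17 fell in cluster 3 from 89.6, 89.3 and 99.8 to 19.5, 21.5 and 28.1 (log2 fold change -1.97, SE 0.11, adjusted p = 3.52e-09) and in cluster 6 from 76.6, 66.6 and 49.7 to 19.3, 17.0 and 14.8 (log2 fold change -1.83, SE 0.17, adjusted p = 4.84e-08). In cluster 7, where its level was highest, it had 100.3, 144 and 142 in WT and 166, 136 and 154 in KO (log2 fold change 0.27, SE 0.12, adjusted p = 0.117). Cdh9 fell in cluster 6 (log2 fold change -1.86, SE 0.20, adjusted p = 6.59e-07), and Cdh11 in cluster 7 (log2 fold change -1.05, SE 0.15, adjusted p = 0.000243).

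**Figure D4:**
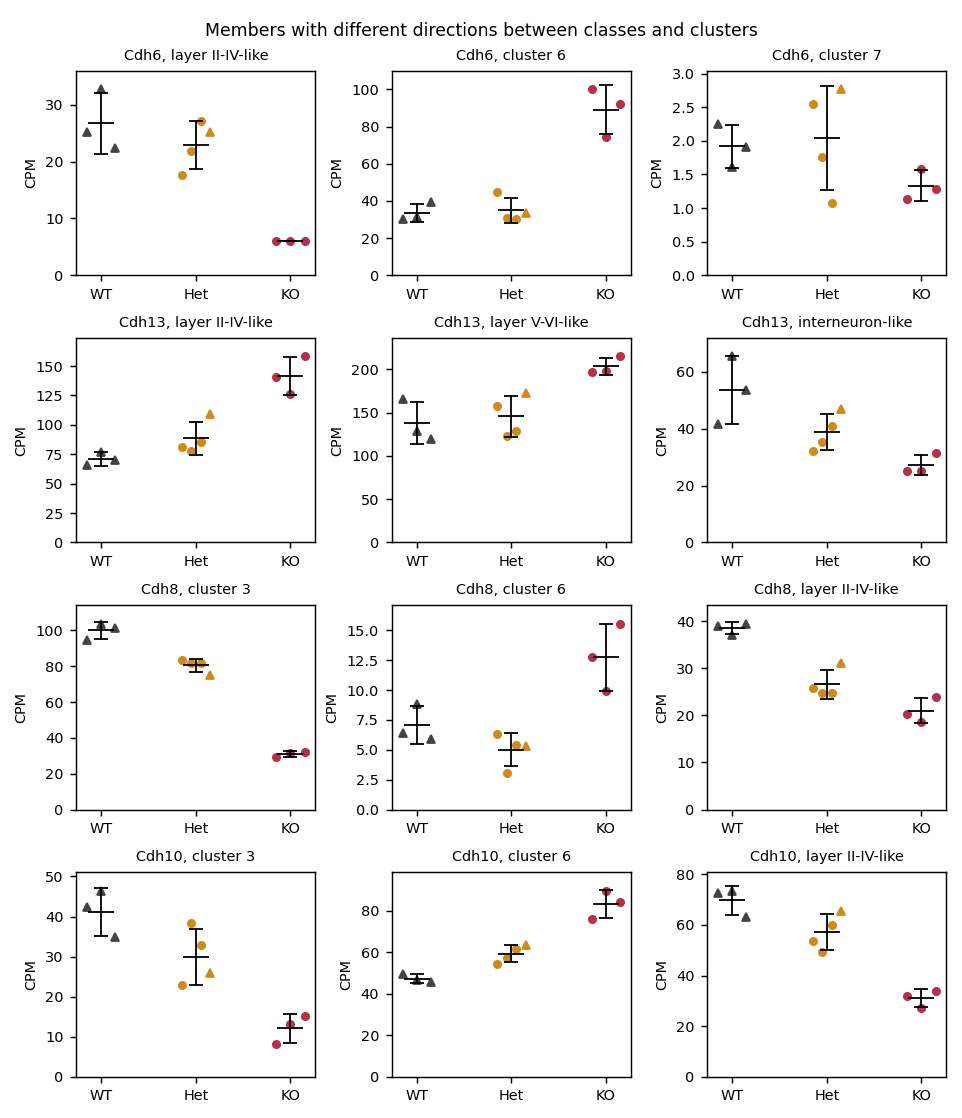
CPM by embryo for members that move in different directions: Cdh6 in layer II-IV-like cells and in clusters 6 and 7, Cdh13 in layer II-IV-like, layer V-VI-like and interneuron-like cells, and Cdh8 and Cdh10 in clusters 3 and 6 and in layer II-IV-like cells. Each point is 1 embryo (triangles GA429, circles GA422), bars are means and error bars 1 SD. Cdh6 in KO sits near 6 CPM in layer II-IV-like cells and between 74.4 and 100.1 in cluster 6.

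The interneuron-like class pools clusters 2, 10, 16, 18 and 24. Cluster 16, with a median of 2181 UMIs per cell, held 242, 222 and 240 cells in the WT embryos, 54, 98, 91 and 252 in Het and 33, 66 and 109 in KO. In interneuron-like cells 4 of 25 members were called in KO vs WT, against 8.76% of all genes, and none in Het vs WT, where edgeR called no gene at all and 7 members had an unadjusted p under 0.05, against 13.5% of all genes. Cdh13, which rose in both layer classes, fell here, from 41.7, 65.4 and 53.6 CPM in WT and 32.3, 35.3, 41.0 and 46.8 in Het to 25.2, 25.1 and 31.3 in KO (log2 fold change -0.96, SE 0.16, adjusted p = 0.0054). Cdh11, a type II cadherin that is widespread in mesenchyme (named here after its values were seen), had 48.2, 43.4 and 48.3 in WT, 37.5, 33.2, 41.1 and 36.8 in Het and 24.9, 24.0 and 26.2 in KO (log2 fold change -0.88, SE 0.09, adjusted p = 0.000225), with no overlap between any of the 3 groups. Cdh12 was lower (log2 fold change -1.02, SE 0.28, adjusted p = 0.0395) and Cdh24 higher (log2 fold change 0.55, SE 0.14, adjusted p = 0.0318). Without cluster 16, 3 members were called, Cdh11, Cdh13 and Cdh24, against 7.66% of all genes. Cdh12 missed the threshold on p in 13 of 24 alternatives and Cdh24 in 12 of 25. Leaving out any 1 of the WT or KO embryos left 2 members called, Cdh11 and Cdh13. The genes called in these fits ran from 314 of 13239 (without KO replicate 2) to 950 of 13236 (without WT replicate 1). Within GA422, Cdh11 was the 1 of 25 called (log2 fold change -0.59, SE 0.09, adjusted p = 0.02), against 0.743% of all genes.

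The spread in this class was wide for some members. Pcdh17, for example, had 51.8, 134 and 99.4 CPM in WT, 40.7, 73.5, 118 and 110.0 in Het and 113, 121 and 128 in KO. In cluster 2 alone, led by Maf, Nxph1 and Lhx6, 9 of 21 members were called, against 15.5% of all genes. There Pcdh17 rose from 47.8, 68.2 and 67.6 to 121, 103 and 97.3 (log2 fold change 0.82, SE 0.16, adjusted p = 0.00143), and Pcdh9 (log2 fold change 0.67, SE 0.15, adjusted p = 0.00379) and Cdh22 (1.22, adjusted p = 0.0414) rose as well. The 6 members lower in cluster 2 were Cdh13 (-1.37, adjusted p = 2.95e-05), Cdh11 (-1.12, adjusted p = 4.37e-05), Cdh10 (-1.18, adjusted p = 0.00523), Cdh9 (-2.25, adjusted p = 0.0142), Cdh7 (-1.30, adjusted p = 0.00292) and Cdh2 (-0.26, adjusted p = 0.0111). In cluster 10, led by Adarb2, Htr3a and Prox1, 2 of 15 were called (against 6.5%), Cdh13 (-1.41) and Cdh10 (-1.18), both lower. The interneuron markers of the class summed to 3797 to 4929 CPM in WT and 3694 to 3913 in KO, and 3 of 14 were called lower. In the same cells the ganglionic eminence markers summed to 1025 to 1221 in WT and 1441 to 1509.7 in KO, with 4 of 9 higher. The subventricular zone markers summed to 70.1 to 90.9 and 101 to 153, with 3 of 8 higher, and the striatal inhibitory markers to 204 to 253 and 134 to 194, with 3 of 11 lower. Their part in the results was not tested.

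Whether a change differed between classes was tested as an interaction of class and genotype, with the embryo as a block, over the 3 large neuron classes. Of 75 tests on members, 23 passed an adjusted p under 0.05, in 13 members. The share of all genes was 5.2% for layer V-VI against layer II-IV, 9.46% for interneuron against layer II-IV and 8.84% for interneuron against layer V-VI. The difference for Cdh6 between layer V-VI and layer II-IV was 2.89 (SE 0.26, adjusted p = 1.94e-07) in log2 fold change. For Cdh13, the interneuron change minus the layer II-IV change was -2.004 (SE 0.18, adjusted p = 1.38e-07) and minus the layer V-VI change -1.58 (SE 0.18, adjusted p = 4.31e-06). Cdh11 differed in the same 2 comparisons, by -1.11 (SE 0.10, adjusted p = 1.9e-07) and -0.92 (SE 0.09, adjusted p = 1.21e-06). Pcdh19 and Pcdh7, lower in both layer classes, differed from interneuron-like cells by 1.31 (SE 0.18, adjusted p = 4.55e-05) and 1.13 (SE 0.26, adjusted p = 0.00762) against layer V-VI. Cdh4, Cdh24, Cdh12 and Pcdh10 had no difference past the threshold, with Cdh4 at 0.15 (SE 0.12, adjusted p = 0.656) between the layer classes.

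Members were called in the progenitor classes as well, which the test of differences between classes did not include. Radial glia-like cells were named after the neural stem cells of the ventricular zone, but both clusters of the class scored highest for other lists. In this class 10 of 22 members were called, against 20.2% of all genes. Pcdh20 (4.06, 4.02 and 3.42 CPM in WT, 1.29, 1.00 and 0.550 in KO, log2 fold change -1.99, SE 0.40, adjusted p = 0.00464) and Pcdh7 (62.5, 57.6 and 41.8 in WT, 23.9, 15.4 and 27.3 in KO, log2 fold change -1.23, SE 0.20, adjusted p = 0.0018) were the largest. Cdh4, which was higher in KO in both layer classes, was lower in radial glia-like cells, with 75.3, 82.0 and 111 in WT and 63.0, 53.9 and 55.6 in KO (log2 fold change -0.61, SE 0.12, adjusted p = 0.0038). Cdh6 was higher, with 26.7, 34.8 and 38.1 in WT, 38.1, 33.7, 37.7 and 47.4 in Het and 61.9, 49.9 and 55.9 in KO (log2 fold change 0.78, SE 0.13, adjusted p = 0.00194). Cdh13 (-0.74), Pcdh15 (-1.04), Cdh11 (-0.71), Cdh10 (-0.52) and Pcdh1 (-0.93) were lower and Pcdh8 (0.60) higher. Under the alternatives listed next, Pcdh1 missed the threshold on p in 8 of 11, Cdh11 in 4 of 12, Cdh10 in 3 of 12 and Pcdh15 in 2 of 11.

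This class pools cluster 11 and cluster 13. Cluster 11, with a median of 2717 UMIs per cell, scored highest for the choroid plexus list (3.89, against 1.34 for radial glia). Its leading gene was Ttr, a gene of the choroid plexus, and 3 of its top 10 genes were radial glia markers. Cluster 13 scored highest for the oligodendrocyte precursor list (4.32, against 2.84 for radial glia) but was led by radial glia markers. Cluster 11 held 386, 291 and 313 cells in the WT embryos and 97, 104 and 213 in KO, and cluster 13 held 130, 179 and 161 in WT and 195, 113 and 200 in KO. In cluster 13 alone, 11 of 20 members were called in KO vs WT, against 19% of all genes. They were the 10 members above, each in the same direction, and Pcdh17 (log2 fold change -0.48, SE 0.12, adjusted p = 0.011). In cluster 11 alone, 1 of 14 was called, Pcdh7 (log2 fold change -1.64, SE 0.31, adjusted p = 0.0114), against 3.07% of all genes, and Cdh13 (0.54, adjusted p = 0.287) and Cdh6 (-0.16, adjusted p = 0.912) were on the other side of 0. Without 1 embryo the count for the class was 6 to 11, with 6 without KO replicate 2, against 10.8% of all genes. Choroid plexus markers summed to 10.95 to 41153 CPM in WT, highest in WT replicate 1, and 2.57 to 9.90 in KO, with 2 of 2 called lower. Without WT replicate 1, 9 members were called, against 15.6% of all genes. Oligodendrocyte precursor markers summed to 428.8 to 555 in WT and 217 to 268 in KO, with 5 of 6 lower, and interneuron markers to 189 to 238 and 81.1 to 134, with 5 of 13 lower. Subventricular zone markers summed to 390.2 to 559 and 575 to 728, with 4 of 8 higher. Of the layer V-VI markers 4 of 10 were lower and 1 higher, and of the radial glia markers themselves 3 of 10 were lower and 2 higher. Their part in the results was not tested.

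In subventricular zone-like cells, the intermediate progenitors, 6 of 19 members were called in KO vs WT, all lower, against 16.9% of all genes. Cdh11 went from 14.5, 19.6 and 15.6 CPM in WT over 9.52, 8.18, 10.6 and 7.74 in Het to 4.67, 5.91 and 5.49 in KO (log2 fold change -1.59, SE 0.19, adjusted p = 1.86e-05), and Pcdh18 from 24.0, 22.8 and 17.4 over 12.97, 12.4, 12.1 and 13.5 to 8.94, 10.7 and 9.33 (log2 fold change -1.11, SE 0.15, adjusted p = 5.73e-05). Both were called in Het vs WT too (-0.86 and -0.72, adjusted p = 0.0267 and 0.0263), against 0.881% of all genes. Cdh4 (-0.48), Cdh10 (-0.48), Pcdh7 (-0.50) and Pcdh20 (-0.83) completed the 6. Over all cells the subventricular zone markers summed to 290.4 to 303 CPM in WT and 479 to 527 in KO, with 9 of 9 called higher. Within the subventricular zone-like cells they summed to 2307 to 2487 in WT and 2654 to 2887 in KO, with 4 of 9 higher. There the interneuron markers summed to 179.9 to 198 and 127 to 135, with 5 of 12 lower. Of the layer V-VI markers, 4 of 10 were lower and 2 higher in these cells, and of the layer II-IV markers 3 of 9 were lower. Of the radial glia markers 3 of 10 were higher. Their part in the results was not tested.

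In cluster 1, 9 of 20 members were called, against 25.6% of all genes. Cdh11 (14.3, 14.6 and 15.0 CPM in WT, 6.56, 5.89 and 7.90 in KO, log2 fold change -1.03, SE 0.13, adjusted p = 1.4e-05) and Pcdh15 (log2 fold change -1.71, SE 0.38, adjusted p = 0.00232) fell most, and Cdh13 (log2 fold change 0.51, SE 0.13, adjusted p = 0.00639) and Pcdh17 (log2 fold change 0.31, SE 0.09, adjusted p = 0.0125) rose. In this cluster the layer V-VI markers summed to 436 to 470.2 CPM in WT and 623 to 681 in KO, with 5 of 10 higher and 4 lower, and the subventricular zone markers to 420.3 to 445 and 528 to 581, with 5 of 8 higher. The interneuron markers summed to 96.3 to 118 and 73.7 to 84.6, with 7 of 13 lower, and of the layer II-IV markers 2 of 9 were lower. Their part in the results was not tested. In striatal inhibitory-like cells, 4 of 23 were called, against 14.3%. Cdh13 had 48.5, 39.2 and 38.2 CPM in WT, 31.9, 23.3, 21.1 and 26.9 in Het and 30.6, 16.6 and 24.5 in KO there (log2 fold change -0.79, SE 0.17, adjusted p = 0.00446), and was the 1 member called in Het vs WT (log2 fold change -0.67, SE 0.15, adjusted p = 0.0348), against 1.43% of all genes. Cdh22 rose in the same class, from 2.63, 4.09 and 5.33 to 8.88, 10.0 and 7.26 (log2 fold change 1.13, SE 0.28, adjusted p = 0.0121), as it did in cluster 2 and cluster 7, and Cdh11 and Pcdh8 fell. In these cells the ganglionic eminence markers summed to 1313 to 1415 CPM in WT and 1561 to 1916 in KO, with 4 of 8 higher, and the subventricular zone markers to 121 to 134 and 171 to 203, with 4 of 7 higher. Of the interneuron markers 3 of 14 were higher and 3 lower, and of the striatal inhibitory markers 1 of 12 was higher and 3 lower. Whether these shifts bear on the 4 members was not tested.

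Pcdh10, lower in both layer classes, was higher in 3 others. In layer I-like cells it went from 22.9, 36.5 and 30.6 CPM in WT and 41.6, 53.7, 40.9 and 47.9 in Het to 55.1, 64.0 and 52.8 in KO (log2 fold change 0.94, SE 0.16, adjusted p = 0.00126), in cluster 20 (led by Tesc, Tac2 and Prox1) from 16.48, 19.8 and 17.3 to 39.9, 35.4 and 44.5 (log2 fold change 1.22, SE 0.22, adjusted p = 0.00501) and in ganglionic eminence-like cells from 56.8, 56.8 and 44.4 to 73.2, 59.2 and 68.2 (log2 fold change 0.39, SE 0.09, adjusted p = 0.0208). Markers moved in the same cells. In layer I-like cells 2 of 6 subventricular zone and 2 of 10 layer V-VI markers were higher, and of the layer I markers 1 of 8 was higher and 2 lower. In cluster 20, 3 of 8 subventricular zone markers were higher and 1 lower. The ganglionic eminence-like cells are cluster 14, led by Hist1h1b and Top2a, and cluster 15, led by Ccnd2 and Cenpf. Among their top 10 genes, 0 and 1 were ganglionic eminence markers. In these cells, 3 of 10 of their own markers were higher and 1 lower, and 3 of 10 layer V-VI markers were lower and 1 higher. Of the radial glia markers 2 of 10 were higher and 3 lower, and of the subventricular zone markers 2 of 8 were higher. Erythroid markers were lower in 3 of 5 and oligodendrocyte precursor markers in 2 of 3. What these markers contribute to the rises was not tested. Cdh7 rose in layer I-like cells (49.3, 34.7 and 52.8 in WT, 91.8, 67.1 and 118 in KO, log2 fold change 1.06, SE 0.18, adjusted p = 0.000715) and in cluster 5 (log2 fold change 1.09, SE 0.31, adjusted p = 0.0442), and fell in layer II-IV-like cells (log2 fold change -0.72, SE 0.17, adjusted p = 0.0043). The counts called in these classes were 2 of 19 in layer I-like cells (against 5.47% of all genes), 3 of 25 in cluster 5 (8.15%), 3 of 21 in ganglionic eminence-like cells (8.44%) and 1 of 15 in cluster 20 (4.53%). Of the layer V-VI markers in cluster 5, 2 of 10 were higher and 2 lower. There 2 of 8 radial glia and 2 of 8 subventricular zone markers were higher, and their part was not tested. In cluster 12, 1 of 12 was called (against 2.67%), Pcdh7, with 437, 455 and 459 CPM in WT, 218, 258, 295 and 421 in Het and 114, 220.2 and 199 in KO (log2 fold change -1.22, SE 0.24, adjusted p = 0.00298), and Het replicate 4 (GA429) near the WT embryos. In that cluster 4 of 4 erythroid markers were lower, and their part was not tested. None of the 12 tested members was called in pericyte and fibroblast-like cells, where 0.286% of all genes were. At an unadjusted p under 0.05 there were 3 members, against 12.5% of all genes.

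Counted over all classes tested, 22 of the 27 members tested in a class were called in KO vs WT in at least 1, against 52% of all genes tested in a class. There were 7 members (Cdh4, Cdh6, Cdh7, Cdh13, Pcdh8, Pcdh10 and Pcdh17) that were called higher in 1 class and lower in another, against 4.28% of all genes. Of the 12 members with no call in a class, 6 were too low to test over all cells and Cdh23 was tested in no class. Cdh5 and Pcdh12 were tested in 1 class each, and not in endothelial-like cells, so that their lack of a call says little. Cdh18 was tested in 5 classes and Cdh20 in 6. Cdh2 was tested in 15 classes and called in none, and passed when clusters were fitted alone in cluster 2 (log2 fold change -0.26, SE 0.07, adjusted p = 0.0111) and in cluster 3 (log2 fold change 0.26, SE 0.07, adjusted p = 0.0139), in opposite directions.

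Genes that bind cadherins, or belong to the wider superfamily, were taken from fixed lists. Over all cells, 12 of 38 tested were called in KO vs WT, 5 higher and 7 lower, in the fit where 24.5% of all genes were. Of 14 catenins and junction partners, 2 were higher and 2 lower. Ctnnb1 (β-catenin, which links classical cadherins to α-catenin and also carries Wnt signals) rose from 219 ± 5.30 to 276 ± 6.16 CPM (SD, n = 3 and 3, log2 fold change 0.33, SE 0.06, adjusted p = 0.00128), and Ctnna1 (αE-catenin) rose from 28.5 ± 0.742 to 34.0 ± 2.03 (log2 fold change 0.26, SE 0.06, adjusted p = 0.00501). Nectin3, an adhesion protein of the immunoglobulin family, fell from 47.6 ± 3.06 over 37.9 ± 1.17 in Het to 27.1 ± 1.60 (log2 fold change -0.81, SE 0.06, adjusted p = 3.93e-06). Of the 9 genes of the WAVE complex, which delta-2 protocadherins recruit, 1 was called, Wasf3 (log2 fold change -0.29, SE 0.06, adjusted p = 0.00374). Within GA422, where 6.14% of all genes were called between KO and Het, Nectin3 (-0.49, adjusted p = 0.000605) and the catenin Arvcf (0.26, adjusted p = 0.011) were called, and Ctnnb1 (0.0867, adjusted p = 0.224), Ctnna1 (0.12, adjusted p = 0.266) and Wasf3 (-0.18, adjusted p = 0.112) were not.

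Among 17 further genes of the cadherin superfamily, 15 were tested, 3 were higher and 4 lower. Dsc3 and Dsg2, both desmosomal cadherins, were low and moved apart, Dsc3 from 0.782 ± 0.285 to 0.165 ± 0.0853 CPM (log2 fold change -2.21, SE 0.37, adjusted p = 0.00121) and Dsg2 from 0.918 ± 0.0847 to 1.99 ± 0.125 (log2 fold change 1.12, SE 0.15, adjusted p = 0.00037). Celsr1, a cadherin of planar cell polarity, rose from 11.7 ± 0.768 over 16.8 ± 2.43 in Het to 22.3 ± 2.37 in KO (log2 fold change 0.94, SE 0.11, adjusted p = 0.000157). Within GA422, Dsc3 (-1.79, adjusted p = 0.0129) and Dsg2 (0.70, adjusted p = 0.0153) were called between KO and Het and Celsr1 (0.43, adjusted p = 0.0527) was not. Celsr1 was also among the 10 leading genes of the subventricular zone-like cluster, whose markers were higher in KO over all cells, and the part of those cells was not tested.

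Members share chromosomes. In GENCODE vM21 (GRCm38), Cdh6 (chr15:13028701-13173675), Cdh9 (chr15:16728756-16857094), Cdh10 (chr15:18818947-19014236), Cdh12 (chr15:20449265-21589533) and Cdh18 (chr15:22549022-23474418) follow each other on chromosome 15. Over all cells, 3 of these 5 were called lower (Cdh9, Cdh10 and Cdh12), and Cdh18, at -0.48 (adjusted p = 0.0827), and Cdh6, at 0.14 (adjusted p = 0.33), were not called. Against them, 12.5% of all genes were called lower. Pcdh8, Pcdh17, Pcdh20 and Pcdh9 lie on chromosome 14, from 79766775 to 93890679, and over all cells 1 of these 4, Pcdh20, was called lower. Chromosome 8 holds 8 members, of which 5 were tested, and there Cdh8 was called lower and Cdh13 higher.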

How the data were processed

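The authors deposited UMI counts per gene and cell as 1 matrix for each of the 10 embryos, made with 10X Genomics 3′ libraries. The submitters' processing notes name Cell Ranger 6.0.2 and mm10. The paper's methods give another release of that tool, so the release is not settled. Nothing states how overlapping or antisense genes were counted, and their UMIs are uncertain to that extent. A count is a number of UMIs and no normalization had been applied.

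A cell entered with 1000 or more UMIs, of which no more than 10% were mitochondrial. Cells were clustered with Seurat 5.3.0 (integration across embryos, 2000 variable genes without the members, 30 components, resolution 0.4), and a cluster was named as a class from fixed marker genes when its marker score was at least 0.5, with at least 3 markers detected in 10% of its cells. Where markers among its top 10 genes by fold went against that name, those genes decided or it stayed unnamed, a rule set after the clusters had been seen. Doublets scored by Scrublet in scanpy 1.11.5 were removed only in an alternative, at 4.80 to 8.31% of cells per embryo, since its own threshold marked 0.0341 to 2.53%.

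UMIs were summed per embryo, or per embryo and class where every embryo had at least 20 cells, and tested with edgeR 4.0.16 (filterByExpr, TMM, quasi-likelihood F-test, all 10 embryos, R 4.3.3) with Benjamini-Hochberg adjustment over all genes tested. This replaces the study's test, which takes cells as replicates. Calls needed both an adjusted p below 0.05 and a log2 fold change of more than 0.25 in size. A difference between classes needed the adjusted p alone, with the embryo as a block. The fits were also run on simulated counts, and the outcome is not reported here. DESeq2 1.42.0 and limma 3.58.1 served alternatives. Embryos are the replicates, and p-values measure the spread between them within libraries prepared once.

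The members, gene lists and tests were chosen with earlier results of these data known. Values of every embryo are given for members called over all cells, or in KO vs WT in at least 2 of the 3 large neuron classes (15 members), and levels per class for members with a WT mean of at least 50 CPM in a class. From each partner list, up to 3 called genes with the largest change are named. Cdh2, Cdh7, Cdh11 and Cdh22, and single values of other members in smaller classes and clusters, were chosen after their values had been seen. Promoter sequences are those of RefSeq for GRCm38.p6.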

Additional observations from a re-analysis of the deposited data

Results flagged for a closer look

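The change from WT to KO differed between classes of cells in 23 tests on 13 members, with the interaction in edgeR at a Benjamini-Hochberg adjusted p under 0.05. Each value here is a difference between 2 log2 fold changes of KO vs WT. For layer V-VI-like minus layer II-IV-like cells it was 2.89 for Cdh6, 1.84 for Pcdh20, 0.65 for Cdh10 and -0.29 for Pcdh8. For interneuron-like minus layer II-IV-like cells it was 2.73 for Pcdh15, 2.18 for Pcdh20, 1.88 for Pcdh17, 1.01 for Pcdh7 and 1.01 for Pcdh19. In the same comparison it was -0.20 for Cdh2, -0.39 for Pcdh8, -1.11 for Cdh11 and -2.004 for Cdh13. For interneuron-like minus layer V-VI-like cells it was 1.39 for Pcdh15, 1.34 for Pcdh18, 1.31 for Pcdh19, 1.13 for Pcdh7, 1.09 for Pcdh17 and 0.92 for Cdh8. There it was also -0.31 for Cdh2, -0.92 for Cdh11, -1.54 for Cdh6 and -1.58 for Cdh13. The 3 comparisons share their classes, so the values are not independent of each other.

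Single Het embryos stood far from the other 3 in 3 of 101 groups of 4 values checked, and chance alone marks about 1 in 20 such groups. In layer II-IV-like cells, Pcdh10 was at 42.9 CPM in Het replicate 2 and at 53.9 to 55.01 in the others. In layer V-VI-like cells, Cdh11 was at 64.2 CPM in Het replicate 2 against 78.0 to 79.8, and Cdh24 at 6.37 in Het replicate 3 against 5.24 to 5.34.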

How the results depend on the processing

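Over all cells in Het vs WT, where no member was called, DESeq2 called 1, against 5.68% of all genes. No filter on low counts gave 2, against 538 of 25580 genes, and at most 5% mitochondrial UMIs gave 1, against 698 of 17013. Leaving out 1 embryo gave 0 to 3. There were 3 without Het replicate 4, against 1829 of 17583 genes. There was 1 without WT replicate 3, against 137 of 17898, and 1 without KO replicate 3, against 269 of 17895. In KO vs WT, 11 members became 5 with the library prefix as a covariate and 5 with equal weight for each class, and 7 to 12 without 1 embryo (7 without KO replicate 2). Within GA422 the count was 5 to 7 without 1 embryo. It was 5 without Het replicate 2, against 569 of 17448 genes, and 7 without Het replicate 1, against 1268 of 17459. In layer II-IV-like cells it was 14 to 16 without 1 embryo. There were 14 without WT replicate 1, against 3305 of 13413 genes, and 16 without Het replicate 4, against 3702 of 13184. In layer V-VI-like cells, 17 became 11 in KO vs Het within GA422 and 11 in cluster 7 alone, and 14 to 18 without 1 embryo. There were 14 without WT replicate 1, against 3145 of 14446 genes, and 18 without Het replicate 4, against 3616 of 14161. In interneuron-like cells, 4 became 1 with the prefix as a covariate, against 25 of 13022 genes, and 2 with at most 5% mitochondrial UMIs, against 787 of 12417. The count was 1 in KO vs Het within GA422, 9 in cluster 2 alone and 2 in cluster 10 alone, with the shares of all genes given above. It was 2 to 5 without 1 embryo (2 without any 1 of the WT or KO embryos). In radial glia-like cells, 10 became 1 in cluster 11 alone, and 6 to 11 without 1 embryo (6 without KO replicate 2). Partner genes called were 9 with the prefix as a covariate, against 8.31% of all genes, and 10 to 15 without 1 embryo. There were 10 without KO replicate 2, against 3448 of 17930 genes, and 15 without WT replicate 1, against 3889 of 17867. Members that differed between classes were 11 to 14 without 1 embryo, 15 with DESeq2 and 19 with no filter on low counts. Shares of all genes were not taken under these alternatives, so these counts describe the members only. The highest class of a member was kept in 10 of 17 members at resolution 0.8 and in 10 without integration. The causes were not tested.

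Some log2 fold changes turned direction, namely Pcdh18 (0.0525) and Pcdh15 (0.17) over all cells with equal weight for each class, Cdh8 (0.89) and Cdh10 (0.88) in cluster 6 alone, Cdh4 (-0.31), Pcdh17 (0.27) and Cdh6 (-0.50) in cluster 7 alone, and Cdh13 (0.54) and Cdh6 (-0.16) in cluster 11 alone. Of the other values of single members, 1138 kept direction and an adjusted p under 0.05 and 140 kept direction only, and of those of partner genes 170 and 10. With the replicate block, 3 members were called over all cells in Het vs WT, beside 1850 of 17647 genes, and 13 in KO vs WT, beside 4626 of 17647. Deviations of embryos with the same number correlated between -0.19 and 0.13, so the numbers were not taken to pair the embryos. Splits into clusters, comparisons by class within GA422 and the omission of low-UMI clusters were chosen after seeing the data. Depth limits the low members, such as Pcdh15 with 195 UMIs in layer II-IV-like cells.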
